A study of Mus musculus with 2 samples.

Results

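The 55 genes described here are the genes of mouse chromosome 8 that the authors listed as different between embryonic stem cells overexpressing Flag-tagged Prdm14 and cells overexpressing the Flag tag alone. They were taken from a deposited table of 886 genes by their place in the GENCODE M21 annotation, whose build is mm10. The chromosome holds 64 listed genes, and the rule that chose the 55 leaves out 9 of them, among them genes of the germline and of pluripotency: Zfp42, Nanos3, Tex15, Rbl2, Gdf15, Pou4f2, Tppp3, Triml1 and Triml2. All 9 were higher in Prdm14 cells, so the counts of higher genes below are smaller than those of the whole chromosome. The table itself was selected on the same contrast. No row has a log2 fold change smaller than 1.00 in size, a larger mean under 5.007 TPM or a q-value above 0.043. The q-values quoted below are thus part of that selection. With 1 sample per condition in the labels, they cannot be taken to measure variation between cultures. The 55 were therefore chosen by the measured difference that is described. No test was made on it, and for a gene outside the table there is no value.

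Both groups were 46C mouse embryonic stem cells, a line that carries a green fluorescent protein reporter at Sox1, and both were grown in serum with the cytokine LIF. One group, PB_Prdm14, overexpressed Flag-tagged Prdm14, and the other, PB_Flag, overexpressed the Flag tag. The labels give 1 sample per condition and do not say whether the cells are a clone or a pool, while the table gives a mean per condition, with no SD and no number of values behind it. All TPM values (a transcript level scaled by transcript length and by library), log2 fold changes and q-values are from the authors' deposited table, and "higher" and "lower" refer to Prdm14 cells relative to Flag cells. Prdm14 had a mean of 399 TPM in Prdm14 cells and 3.30 TPM in Flag cells, in keeping with the sample labels, whereas the design text names gadd45g. The stem cell factors Nanog (344 TPM in Prdm14 cells, 117 TPM in Flag cells) and Esrrb (229 TPM in Prdm14 cells, 84.8 TPM in Flag cells) were present in both groups.

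Prdm14 is a zinc finger protein with a PR domain that binds DNA and acts mainly as a repressor in embryonic stem cells, where it holds back genes of differentiation and of DNA methylation. Genes on 1 chromosome share no function as such, but neighbours can share regulatory domains, and every gene on a chromosome shares its copy number. Gain of chromosome 8 is a recurrent change of mouse embryonic stem cells in culture. The deposited table holds no measure of chromosome number, so more copies of a gene and more RNA per copy cannot be told apart in these values. In bulk RNA, a change in the share of cells that express a gene and a change in RNA per cell cannot be told apart either.

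Of the 55 genes, 42 were higher and 13 lower in Prdm14 cells, a share of 76.4% higher. Over all 886 listed genes 52.8% were higher and 47.2% lower, and over the 822 listed genes of the other chromosomes 50.7% were higher and 49.3% lower. The share of higher genes differed widely between chromosomes: on the other 18 autosomes it ranged between 34.3% on chromosome 7 and 71.4% on chromosome 18, with a median of 54.6%. The 822 genes include those of the X chromosome, where 6 of 41 listed genes were higher (14.6%). Over the 780 listed genes of the other autosomes 52.7% were higher. The median log2 fold change was 1.19 for the 55 genes, against 1.00 for the listed genes elsewhere and 1.03 for those of the other autosomes. No listed gene has a log2 fold change under 1.00 in size. These signed medians therefore largely follow the share of higher genes and are neither a typical change nor a separate result. The summed level of the 55 genes was 1714 TPM in Prdm14 cells and 1002 TPM in Flag cells, 1.71-fold higher. For the listed genes elsewhere the same ratio of sums was 0.788, and 0.974 without the mitochondrial gene mt-Atp6, which had the highest level of them. For those of the other autosomes alone the ratio was 1.01. Among genes that differed at least 4-fold, 3 of the 55 were higher and 4 lower, and with the 9 left-out genes 6 were higher and 4 lower. Over all listed genes 8.69% were at least 4-fold higher and 16.4% at least 4-fold lower, and on the other chromosomes 71 were higher and 141 lower at that size.

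**Figure D1:**
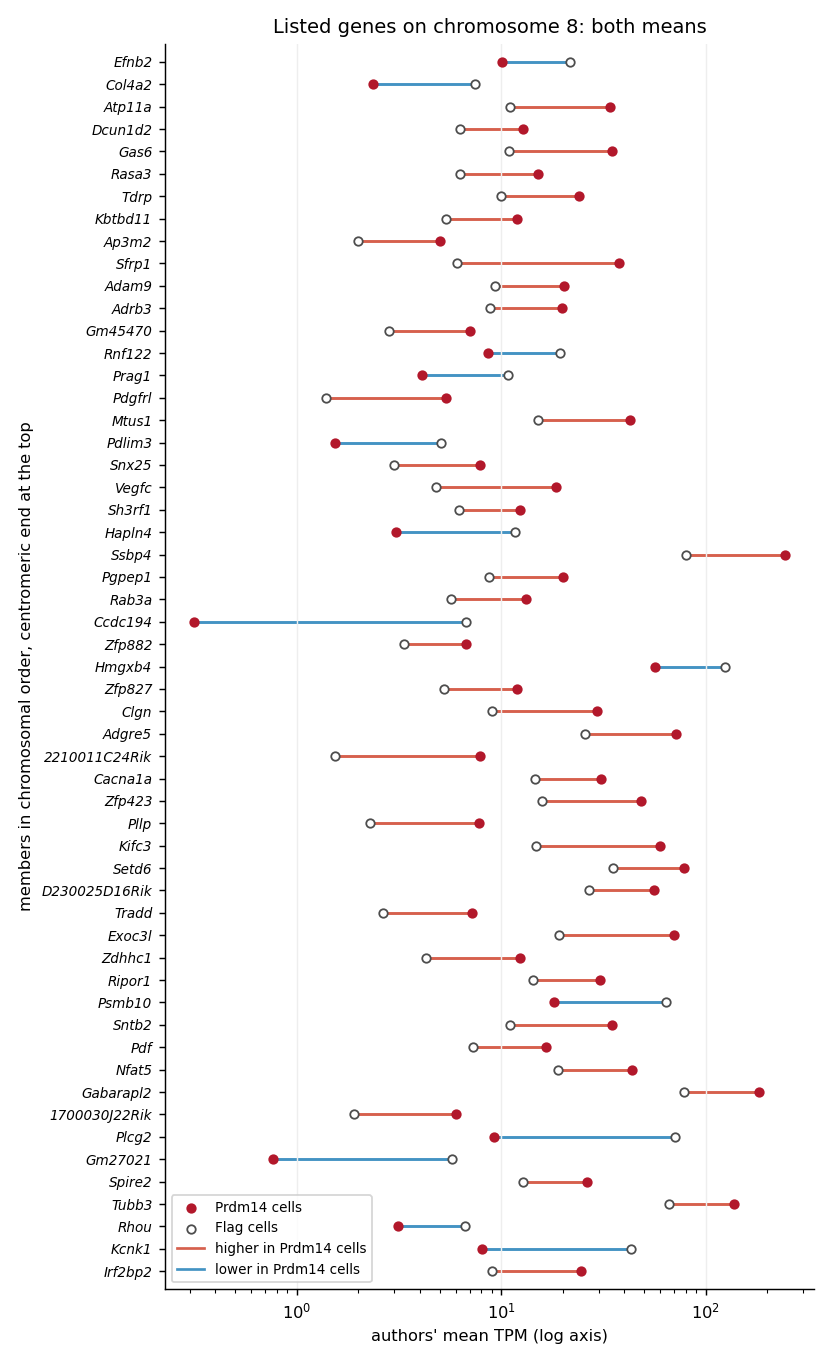
Both of the authors' means for each of the 55 genes, in their order along chromosome 8 from the centromeric end (top). The x axis is TPM on a log scale, filled points are Prdm14 cells, open points are Flag cells, and red and blue lines join genes that were higher or lower in Prdm14 cells. Of the lines, 42 are red and 13 blue, and 14 red lines in a row run from Zfp827 to Ripor1.

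Higher genes were frequent on the chromosome for its number of genes, while their median fold was near that elsewhere and fewer of them reached 4-fold. The chromosome has 1040 annotated protein-coding genes, so the 42 higher members correspond to 4.04 per 100 coding genes, and all 51 higher listed genes to 4.90. On the other 18 autosomes this rate ranged between 1.19 on chromosome 7 and 3.29 on chromosome 3, with a median of 2.08. The 13 lower members correspond to 1.25 per 100 coding genes, and 4 of the other autosomes had a lower rate, in a range of 0.974 to 2.93. These rates are a description without a test. The median fold of higher genes was 2.51 among the 55, 2.65 over all listed on the chromosome and 2.56 on the other chromosomes. Under 3-fold were 66.7% of the higher members and 67.6% of the higher genes elsewhere. The table holds no log2 fold change under 1.00 in size, which by itself brings these values together. At least 4-fold were 7.14% of the higher members, 11.8% of all higher listed genes of the chromosome and 17.0% of those elsewhere.

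**Figure D2:**
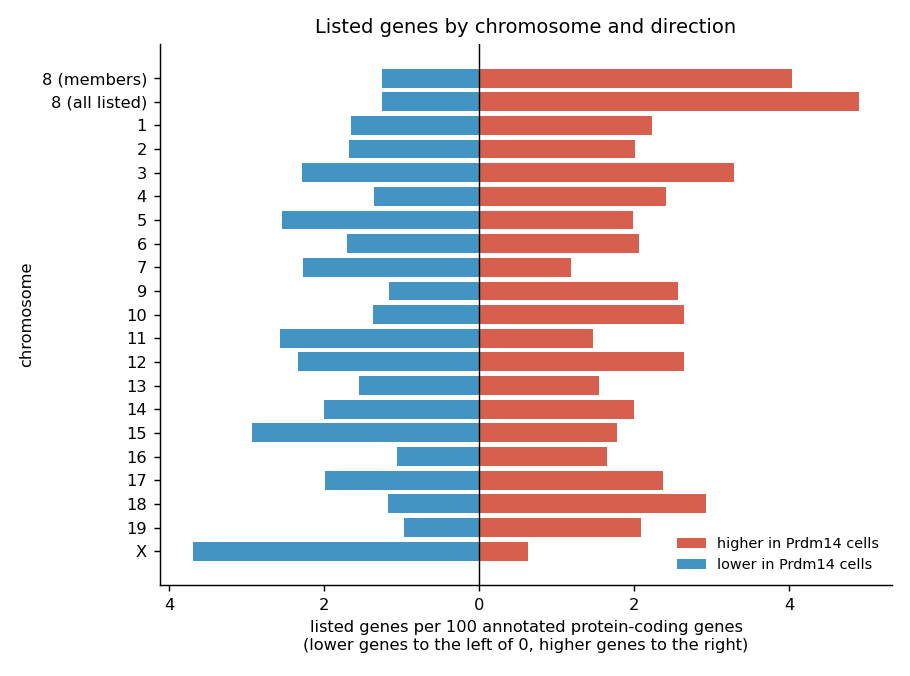
Listed genes per 100 annotated protein-coding genes of each chromosome, with genes higher in Prdm14 cells to the right of 0 and lower ones to the left. The top bar is the 55 members (4.04 higher, 1.25 lower), the next bar is all 64 listed genes of chromosome 8 (4.90 higher), and no other autosome exceeds 3.29 higher genes per 100.

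Higher members were spread along the chromosome. In windows of 10 Mb, higher members outnumbered lower ones in 10 of 13 windows, lower ones outnumbered higher ones in 2, and 1 was even. The windows with lower members alone were those from 0 to 10 Mb, which held Efnb2, and from 30 to 40 Mb, which held Rnf122 and Prag1. With the 9 left-out genes put back, the window from 30 to 40 Mb held 1 higher and 2 lower listed genes. The window from 120 to 130 Mb, at the far end, held 3 higher and 3 lower members. The longest unbroken series of higher members was 14 genes from Zfp827 to Ripor1, between 79.0 and 105.6 Mb, followed by 11 genes from Atp11a to Gm45470, between 12.8 and 27.3 Mb. The 55 genes were densest in the window from 10 to 20 Mb, with 9.33 per 100 coding genes, and sparsest from 60 to 70 Mb, with 1.67. With the 9 left-out genes the window from 40 to 50 Mb was the densest, at 11.9. The 13 lower members were spread over 8 of the 13 windows.

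Neighbours often had the same direction. Of 21 pairs of consecutive members whose transcription starts lie within 500 kb, 17 had the same direction (81.0%), against 179 of 260 such pairs on the other autosomes (68.8%). Where most listed genes are higher, more pairs share a direction by composition alone, so these shares are not a separate result. The largest neighbour group lies between 105225145 and 105938444 on chromosome 8 and holds 6 members, 5 higher and 1 lower. A group of 4 lies between 13255963 and 13975032 (Dcun1d2, Gas6, Rasa3 and Tdrp), another of 4 between 83389867 and 84640246 (Clgn, Adgre5, 2210011C24Rik and Cacna1a), and groups of 3 between 70597490 and 70758677 (Ssbp4, Pgpep1 and Rab3a) and between 106935750 and 107379517 (Sntb2, Pdf and Nfat5). All members of the groups of 4 and of these groups of 3 were higher. A further group of 3 near the far end, between 123332713 and 123663884, held Spire2 and Tubb3, which were higher, and Rhou, which was lower.

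Promoter windows are shown for 3 lower genes. Hmgxb4 and Col4a2 were chosen as the only members whose windows hold letters of the reported Prdm14 motif. Plcg2 was chosen as a lower gene with a high level in Flag cells. Whether Prdm14 acts directly on these genes was not tested. RefSeq windows (build GRCm38.p6) of 250 bases before to 50 bases after the start were found for 33 of the 55 genes, in 37 windows, and were searched on both strands for GGTCTCTAA and for its first letters GGTCTCT alone. The longer motif was in the window of Hmgxb4 alone and in 0.256% of all 32851 windows of the genome. The shorter one, which lies within the longer, was in those of Hmgxb4 and Col4a2 and in 5.68% of all windows. With 2 of the 33 genes, the members were near that share of all windows. The Hmgxb4 window, chr8:75015972-75016271 on the plus strand, belongs to a start inside the annotated gene. The Col4a2 window is chr8:11312555-11312854 and the Plcg2 window chr8:117498025-117498324, both on the plus strand. Exons of Col4a2 overlap those of Col4a1 on the opposite strand, so the Col4a2 window may also hold sequence of Col4a1. Capitals mark the motif, which is present as its reverse complement and starts at position -39 from the start site in Hmgxb4 and at -63 in Col4a2. A match describes these letters and is not evidence of binding, and no match in Plcg2 says only that the letters are not in this window.
Hmgxb4: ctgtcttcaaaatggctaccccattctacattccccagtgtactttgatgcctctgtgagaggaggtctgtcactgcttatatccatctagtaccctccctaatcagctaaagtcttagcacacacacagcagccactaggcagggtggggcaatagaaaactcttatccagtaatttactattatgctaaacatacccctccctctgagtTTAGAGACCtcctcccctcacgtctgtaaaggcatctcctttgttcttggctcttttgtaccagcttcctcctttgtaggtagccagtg
Col4a2: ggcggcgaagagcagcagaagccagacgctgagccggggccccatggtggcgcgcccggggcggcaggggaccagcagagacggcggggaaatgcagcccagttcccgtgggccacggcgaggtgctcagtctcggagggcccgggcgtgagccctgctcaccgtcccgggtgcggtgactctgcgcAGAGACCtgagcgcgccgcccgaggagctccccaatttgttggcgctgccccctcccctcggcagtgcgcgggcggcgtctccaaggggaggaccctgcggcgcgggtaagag
Plcg2: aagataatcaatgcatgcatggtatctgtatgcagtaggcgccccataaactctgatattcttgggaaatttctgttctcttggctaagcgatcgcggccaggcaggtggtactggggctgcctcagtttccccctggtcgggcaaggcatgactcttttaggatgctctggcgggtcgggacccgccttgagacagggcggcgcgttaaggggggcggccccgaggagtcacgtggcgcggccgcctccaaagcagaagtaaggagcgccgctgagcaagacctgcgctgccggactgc

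The genes are described by role below; the groups were largely formed after the names were read, and each count of higher genes is to be read against the 76.4% over all 55. Of 7 ligands and receptors, 6 were higher, near that share, with a median log2 fold change of 1.67. Sfrp1, a secreted antagonist of Wnt ligands (plus strand, 23411502 to 23449632), had 37.7 TPM in Prdm14 cells and 6.08 TPM in Flag cells, 6.20-fold higher, the largest increase among the 55 genes. Vegfc, a secreted growth factor of lymphatic vessels, had 18.5 TPM in Prdm14 cells and 4.81 TPM in Flag cells, 3.85-fold higher. Gas6, the vitamin K-dependent ligand of the Tyro3, Axl and Mertk receptors, had 34.9 TPM in Prdm14 cells and 10.9 TPM in Flag cells, 3.19-fold higher. All of these ligands are secreted, and each was above 15 TPM in Prdm14 cells.

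Among the receptors, Adgre5, an adhesion G protein-coupled receptor also called CD97, was at the highest level, with 71.3 TPM in Prdm14 cells and 25.7 TPM in Flag cells, 2.77-fold higher. Adrb3, a beta-adrenergic receptor of fat tissue, had 19.7 TPM in Prdm14 cells and 8.86 TPM in Flag cells, 2.23-fold higher. The predicted antisense gene Gm45470 overlaps exons of Adrb3 on the opposite strand and had 7.08 TPM in Prdm14 cells and 2.82 TPM in Flag cells, 2.51-fold higher. The use of strand in counting is not given in the sources used here, so the reads of this pair cannot be told apart. Pdgfrl, a protein related to the receptor of platelet-derived growth factor, had 5.36 TPM in Prdm14 cells and 1.39 TPM in Flag cells, 3.85-fold higher (2.66-fold with a pseudocount of 1 TPM). The single lower gene was Efnb2, a transmembrane ligand of Eph receptors, with 10.1 TPM in Prdm14 cells and 21.8 TPM in Flag cells, 2.16-fold lower.

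Signal transducers went both ways, with 5 of 8 higher. Plcg2, a phospholipase C that acts downstream of tyrosine kinases (plus strand, 117498291 to 117635142), had 9.21 TPM in Prdm14 cells and 70.5 TPM in Flag cells. It was 7.65-fold lower, the largest decrease among members above 10 TPM in either group, and its q-value in the authors' deposited table, 1.22e-144, was the smallest of the 55. The other lower transducers had lower levels in both groups: the pseudokinase Prag1 had 4.09 TPM in Prdm14 cells and 10.7 TPM in Flag cells, 2.63-fold lower, and the small GTPase Rhou had 3.13 TPM in Prdm14 cells and 6.66 TPM in Flag cells, 2.13-fold lower. Ripor1 was on the other side, with 30.4 TPM in Prdm14 cells and 14.3 TPM in Flag cells, 2.12-fold higher.

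Sntb2, a syntrophin that ties signalling proteins to the dystrophin complex, had 34.9 TPM in Prdm14 cells and 11.0 TPM in Flag cells, 3.16-fold higher. Rasa3, a GTPase-activating protein for Ras and Rap, had 15.2 TPM in Prdm14 cells and 6.29 TPM in Flag cells, 2.41-fold higher. Tradd, the adaptor of the tumour necrosis factor receptor, had 7.17 TPM in Prdm14 cells and 2.64 TPM in Flag cells, 2.72-fold higher. Sh3rf1, a scaffold of the JNK pathway, lay just inside the fold threshold of the table, with 12.4 TPM in Prdm14 cells and 6.19 TPM in Flag cells, 2.01-fold higher. The next members inside it were Zfp882 and Dcun1d2, at 2.03-fold and 2.04-fold, and genes just outside it have no value here.

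Of 8 genes for transcription and chromatin, 7 were higher, again near the 76.4% of all members. Ssbp4, a single-stranded DNA-binding protein, had the highest level of all 55 genes, with 244 TPM in Prdm14 cells and 80.4 TPM in Flag cells, 3.03-fold higher. The zinc finger factor Zfp423, a partner of SMAD and EBF proteins, had 48.3 TPM in Prdm14 cells and 15.8 TPM in Flag cells, 3.05-fold higher. Irf2bp2, a corepressor that binds an interferon regulatory factor, had 24.5 TPM in Prdm14 cells and 9.005 TPM in Flag cells, 2.73-fold higher. These 3 genes lie far apart, at 70.6, 87.7 and 126.6 Mb.

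Nfat5, the transcription factor of the response to osmotic stress, had 43.4 TPM in Prdm14 cells and 19.0 TPM in Flag cells, 2.28-fold higher. Setd6, a lysine methyltransferase, had 78.4 TPM in Prdm14 cells and 35.3 TPM in Flag cells, 2.22-fold higher. The zinc finger genes Zfp827 and Zfp882 had 12.0 and 6.75 TPM in Prdm14 cells, against 5.26 and 3.33 TPM in Flag cells. Each overlaps exons of another gene on its own strand, Zfp882 those of the zinc finger gene Zfp617, so the division of reads between them is uncertain. Hmgxb4, an HMG-box protein, was the single lower gene of the group, with 56.6 TPM in Prdm14 cells and 125 TPM in Flag cells, 2.20-fold lower. It had the highest level of the 55 in Flag cells. The promoter window shown above belongs to a start inside this gene.

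**Figure D3:**
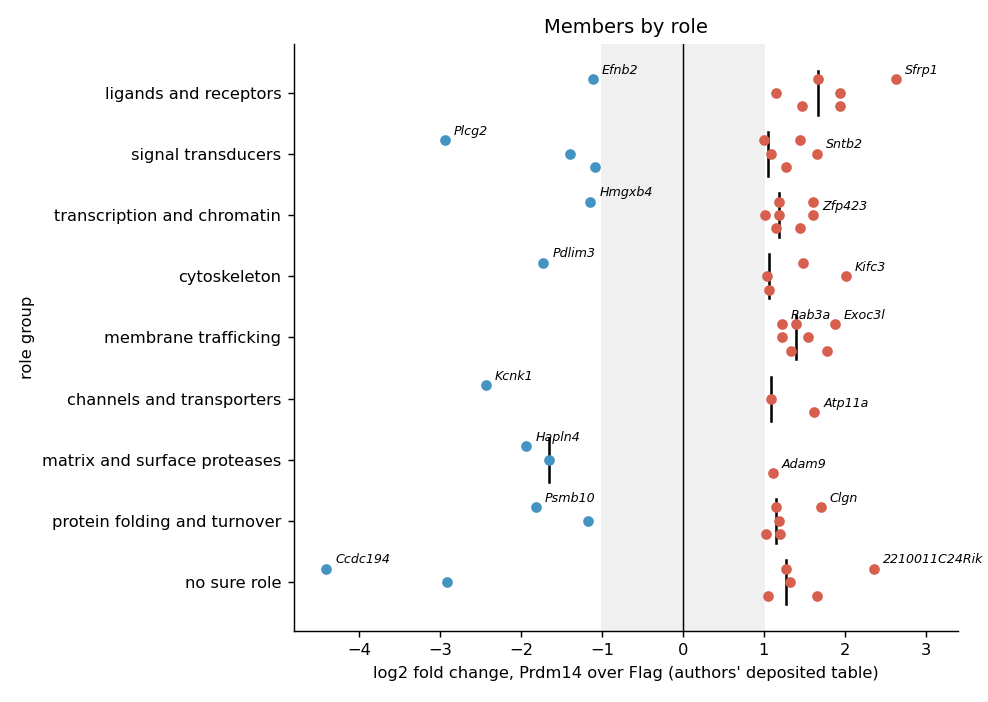
Log2 fold change of each member, Prdm14 over Flag, by role group. Each point is 1 gene, the vertical line is the median of the group, the grey band holds the absolute changes under 1 that the table leaves out, and the lowest and highest gene of each group is named. All 7 trafficking genes lie to the right of 0, and 2 of 3 matrix genes to the left.

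All 7 genes of membrane trafficking, a group formed after the names were read, were higher, between 1.22 and 1.88 on the log2 scale, beside 76.4% of all members. Exoc3l, related to a subunit of the exocyst, which tethers vesicles at the plasma membrane, had 70.2 TPM in Prdm14 cells and 19.1 TPM in Flag cells, 3.67-fold higher. Gabarapl2, an Atg8-family protein of autophagosomes, had 182 TPM in Prdm14 cells and 77.9 TPM in Flag cells, 2.34-fold higher. Rab3a, a GTPase of regulated exocytosis, had 13.2 TPM in Prdm14 cells and 5.67 TPM in Flag cells, 2.33-fold higher. These genes span very different levels, between 13.2 and 182 TPM in Prdm14 cells, with folds between 2.33 and 3.67.

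Pllp, the membrane protein plasmolipin, had 7.80 TPM in Prdm14 cells and 2.28 TPM in Flag cells, 3.42-fold higher. Zdhhc1, of the protein palmitoyltransferase family, had 12.4 TPM in Prdm14 cells and 4.27 TPM in Flag cells, 2.91-fold higher. The sorting nexin Snx25 had 7.88 TPM in Prdm14 cells and 2.998 TPM in Flag cells. Ap3m2, a subunit of an endosomal adaptor complex, was the member with the smallest larger mean, 5.01 TPM in Prdm14 cells and 1.99 TPM in Flag cells.

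Of 5 cytoskeletal genes, 4 were higher. Kifc3, a minus-end-directed kinesin, had 59.8 TPM in Prdm14 cells and 14.8 TPM in Flag cells, 4.04-fold higher. The microtubule-associated protein gene Mtus1 had 42.6 TPM in Prdm14 cells and 15.2 TPM in Flag cells, 2.80-fold higher. Tubb3, a beta-tubulin typical of neurons, had 138 TPM in Prdm14 cells and 66.0 TPM in Flag cells, 2.09-fold higher. All 3 encode microtubule proteins. Spire2, an actin nucleator and the member just before Tubb3 along the chromosome, had 26.3 TPM in Prdm14 cells and 12.8 TPM in Flag cells, 2.06-fold higher. Pdlim3, an actinin-binding protein of muscle, had 1.54 TPM in Prdm14 cells and 5.09 TPM in Flag cells, 3.30-fold lower (2.39-fold with a pseudocount of 1 TPM).

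Of 3 channel and transporter genes, the one with the largest difference was lower. Kcnk1, a background potassium channel (plus strand, 125995170 to 126030685), had 8.02 TPM in Prdm14 cells and 43.3 TPM in Flag cells, 5.397-fold lower. Atp11a, a flippase that moves phospholipids to the inner side of the plasma membrane, had 34.1 TPM in Prdm14 cells and 11.1 TPM in Flag cells, 3.08-fold higher. Cacna1a, the pore subunit of a neuronal calcium channel, had 30.9 TPM in Prdm14 cells and 14.6 TPM in Flag cells, 2.12-fold higher.

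Of 3 matrix and surface protease genes, 2 were lower. Col4a2, a collagen chain of basement membranes, had 2.36 TPM in Prdm14 cells and 7.46 TPM in Flag cells, 3.16-fold lower, with a q-value of 0.0119 in the authors' deposited table. It overlaps exons of Col4a1 on the opposite strand. Hapln4, a link protein of hyaluronan matrices, had 3.06 TPM in Prdm14 cells and 11.7 TPM in Flag cells, 3.81-fold lower. The membrane-bound metalloprotease Adam9 had 20.3 TPM in Prdm14 cells and 9.36 TPM in Flag cells, 2.16-fold higher.

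Genes for protein folding and turnover were higher in 5 of 7 cases. Clgn, the endoplasmic reticulum chaperone calmegin of male germ cells, had 29.5 TPM in Prdm14 cells and 9.05 TPM in Flag cells, 3.26-fold higher. Psmb10, an interferon-inducible subunit of the immunoproteasome, had 18.1 TPM in Prdm14 cells and 63.8 TPM in Flag cells, 3.53-fold lower. It is the lower gene within the 6-gene neighbour group. The RING-finger gene Rnf122 had 8.60 TPM in Prdm14 cells and 19.4 TPM in Flag cells, 2.25-fold lower.

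The remaining 4 genes of this group were 2.04-fold to 2.31-fold higher. The cysteine peptidase gene Pgpep1 had 20.2 TPM in Prdm14 cells and 8.74 TPM in Flag cells. Dcun1d2, a cofactor for attaching Nedd8 to cullins, had 12.8 TPM in Prdm14 cells and 6.30 TPM in Flag cells, and the Kelch-domain gene Kbtbd11 had 11.9 TPM in Prdm14 cells and 5.38 TPM in Flag cells. Pdf, the peptide deformylase of mitochondria, had 16.6 TPM in Prdm14 cells and 7.27 TPM in Flag cells. Pdf overlaps exons of Cog8 on its own strand, and its q-value in the authors' deposited table, 0.0275, was the largest of the 55.

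The last 7 genes have no role that is stated here. Ccdc194 had 0.317 TPM in Prdm14 cells and 6.69 TPM in Flag cells, 21.1-fold lower, the largest ratio of the 55 and 5.84-fold with a pseudocount of 1 TPM. Gm27021, a predicted gene that overlaps exons of Emc8, had 0.768 TPM in Prdm14 cells and 5.76 TPM in Flag cells, 7.495-fold lower, or 3.82-fold with the pseudocount. Both are near 0 in Prdm14 cells, which makes the ratio depend on how low values are treated. Among the higher ones, 2210011C24Rik, which overlaps a microRNA gene, had 7.92 TPM in Prdm14 cells and 1.54 TPM in Flag cells, 5.14-fold higher. The gene 1700030J22Rik had 6.01 TPM in Prdm14 cells and 1.91 TPM in Flag cells, 3.15-fold higher. Tdrp and D230025D16Rik were 2.43-fold and 2.08-fold higher, at 24.1 and 55.9 TPM in Prdm14 cells, against 9.94 and 26.9 TPM in Flag cells.

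Higher genes outnumbered lower ones at low and at high levels. Above the median level of the 55 genes (14.4 TPM as the average of both means), 22 of 27 members were higher (81.5%), and at or below it 20 of 28 (71.4%). For listed genes of other chromosomes split at the same level, the shares were 57.7% and 46.6%. Above this level the median fold of higher genes was 2.75 among members and 2.36 elsewhere. At or below it the medians were 2.46 among members and 2.78 elsewhere. In Prdm14 cells 9 members were at 50 TPM or more, and in Flag cells 6.

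**Figure D4:**
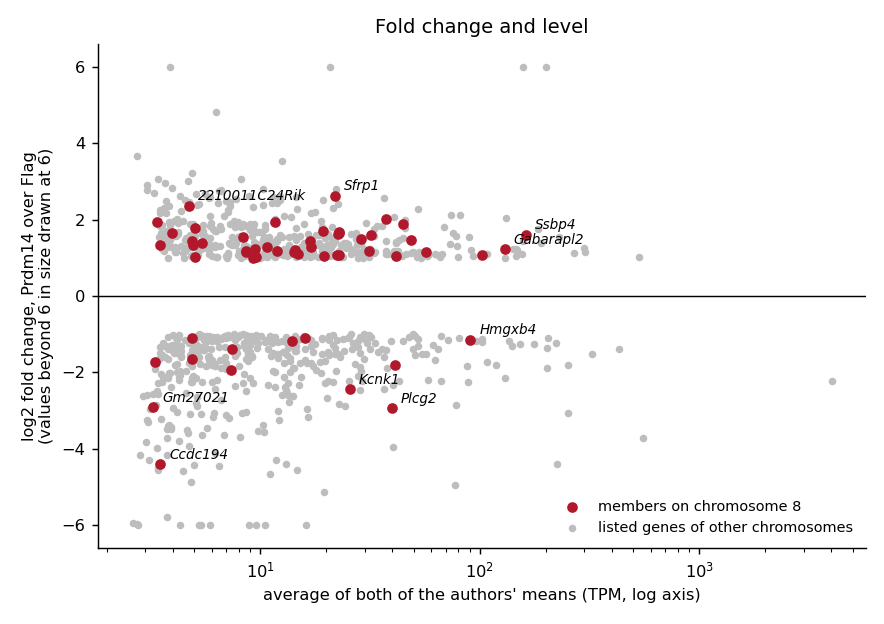
Log2 fold change, Prdm14 over Flag, against the average of both means in TPM (log axis) for the 55 members (red) and the 822 listed genes of other chromosomes (grey). The 42 higher members lie among the grey genes in fold, with a median of 2.51-fold, and the 4 members beyond -2 on the log2 scale are Ccdc194, Plcg2, Gm27021 and Kcnk1.

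Role lists for genes of the chromosome, written down with earlier results of these data known, placed 18 of the 55. The whole chromosome has 5.29 members per 100 protein-coding genes. Lists written with results known cannot show that a role is over- or under-represented against this rate. Shortened family names on the lists, such as Kif, matched no gene, so Kifc3 was not placed and the list sizes are arbitrary. Of 44 genes on the list of transcription factors and chromatin proteins, 2 were members, 1 higher and 1 lower. Of 41 on the signalling list, 6 were members, 5 higher and 1 lower, and of 13 on the cytoskeleton and trafficking list, 4 were members, 3 higher and 1 lower. Of 21 on the transporter and channel list, 3 were members, 2 higher and 1 lower. Of 27 adhesion, matrix and protease genes, 2 were members, 1 in each direction, and of 73 immune genes, mostly defensins, the 1 member was Adgre5. The lists of metabolic enzymes (37 genes), metal-binding proteins (4 genes) and cell cycle, DNA repair and apoptosis genes (21 genes) had no member, although the last holds Rbl2, which is among the 9 listed genes left out. A gene outside the table has no value here, so its absence is not a lack of change.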

How the data were processed

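RNA was taken with Trizol and sequenced on an MGI2000 instrument, per the labels' protocols, with 1 library per condition. The submitters' processing notes name mm10 as build and Bowtie 0.12.2. Which program estimated TPM, and which test gave the p-values and q-values, is not given in the sources used here. The authors computed TPM and deposited a mean per condition, with no counts, so depth is unknown and no counting interval can be given. The authors also deposited the log2 fold change, the log2 ratio of both means (agreeing within 4.09e-11), and a p-value and q-value per gene, used here as deposited.

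All 886 IDs matched GENCODE M21. Coordinates are 1-based on mm10. Folds are ratios of deposited means. Counts, medians, 10 Mb windows by gene start, neighbour groups (500 kb between transcription starts) and promoter searches were computed with Python 3.11.15, numpy 2.4.6 and pandas 2.3.3. The functions for counts, medians, unbroken series and neighbours were checked on simulated or made-up values. The windows and the promoter searches had no such check. The members and lists were chosen with earlier results of these data known, the members placed on no list were grouped after their names were read, and every member was named. The exon overlap of genes was taken from the annotation. With 1 sample per condition and a list selected on the contrast, no test was made. Alternatives changed the fold, q and TPM thresholds, the pseudocount, the genes kept, the window width and the neighbour distance.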

Additional observations from a re-analysis of the deposited data

How the results depend on the processing

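Of the members that differed 4-fold or more, 3 were higher and 4 lower (42.9% higher), so that the majority turned, the median log2 fold change was -2.43 and the ratio of summed TPM 0.832. This setting keeps 7 of the 55 genes; with the 9 left-out genes 6 were higher and 4 lower at that size, and on the other chromosomes 71 were higher and 141 lower. The count of higher members was 21 without genes that overlap another gene, and 25 with 1 gene per neighbour group, an alternative chosen after seeing the data; the shares were then 70.0% and 73.5%. The count of lower members was 8 where the larger mean was at least 10 TPM, with 80.5% of members higher. Under the other alternatives on the genes kept, the share of higher members was between 75.9% and 79.7%, and the median log2 fold change between 1.09 and 1.28 including both pseudocounts. Higher members outnumbered lower ones in 68.2% of 5 Mb windows with members and in 85.7% of 20 Mb windows, against 76.9% of 10 Mb windows. Of neighbour pairs within 250 kb 92.9% had the same direction, and within 1 Mb 70.0%. With a pseudocount of 1 TPM, Ccdc194 and Gm27021 moved by over 1.5 times in fold. Dcun1d2, Sh3rf1, Zfp882, Spire2 and Rhou then fell under 2-fold, between 1.79-fold for Zfp882 and 1.98-fold for Spire2. The same pseudocount on both means cannot change a direction. No paired analysis was possible because each condition has 1 sample. Depth is unknown, which leaves the counting error of low means unstated.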

Other observations

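Overlaps between genes were common among the 55: 25 share exon sequence with another annotated gene, 7 on the same strand and 20 on the opposite strand. How reads were divided between overlapping genes is not given in the sources used here. The 37 promoter windows of 33 members had a median G and C content of 65.0% and a median of 23 CpG sites, against 60.0% and 15 in the windows of listed genes off chromosome 8 and 52.7% and 7 in all windows. Among the members, windows of higher genes had a median of 26 CpG sites (27 windows) and those of lower genes 18.5 (10 windows), with ranges of 7 to 41 and 1 to 46 that overlap.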
